A study of Mus musculus with 12 samples.

Results

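Hepcidin, the peptide hormone that limits how much iron enters the blood, was followed here together with genes of the bone morphogenetic protein (BMP)-SMAD pathway and of iron sensing in cultured mouse hepatocytes. The set was a fixed list of 10 gene symbols, Hamp, Id1, Id3, Atoh8, Bambi, Smad7, Tfr2, Hfe, Tmprss6 and Acvr1, matched to 10 of the 55487 gene identifiers of the count files. All 10 are annotated as protein-coding, and all 10 had enough counts to be tested. Messenger RNA was counted in 12 libraries, in 4 groups of 3. Control hepatocytes received neither a scavenger nor FAC. The labels leave FAC unexplained, and in iron research it usually stands for ferric ammonium citrate. The FAC group received FAC alone. The Lip-1+FAC group was pretreated on day 2 of culture with liproxstatin-1, a scavenger of lipid reactive oxygen species (ROS), and the MT+FAC group with Mito-TEMPO, a scavenger of mitochondrial ROS, before FAC. No group received a scavenger without FAC, and the labels used here give no dose, strain, age or sex. They also do not say whether replicates came from separate animals or cultures, so the p-values measure only the spread between these libraries, which may be technical.

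Hepcidin is made mainly by hepatocytes and binds ferroportin, the cell's iron exporter, which is then degraded. Its transcription is driven largely by BMP ligands from neighbouring endothelial cells. The ligands bind type I and type II receptors with the co-receptor hemojuvelin, the receptors phosphorylate SMAD1, SMAD5 and SMAD8 (the product of Smad9), and these enter the nucleus with SMAD4 and switch on Hamp together with Id1, Id3, Atoh8 and the feedback inhibitor Smad7. HFE and transferrin receptor 2 raise this signal when iron-loaded transferrin is plentiful, and the protease TMPRSS6 lowers it.

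Mice carry a paralog of Hamp, Hamp2. Its transcripts were nearly undetected, at no more than 0.242 CPM (counts per 1e6 gene-assigned counts, scaled by the trimmed mean of M-values, TMM) in any library, and at 0 in all 3 Lip-1+FAC libraries. The transcripts of both genes are 93.3% identical over 417 aligned bases. Reads that fit both equally were listed as multimapping and left out, and Hamp values carry this uncertainty.

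The libraries held between 22991598 and 31683376 gene-assigned counts, except FAC replicate 2 with 52529278, whose file is marked as combined. Replicates of a group correlated at 0.986 to 0.991 (Pearson, log2 CPM) and differed by more than sampling noise (chi-square over its degrees of freedom 8.54 to 22.0). The 6 hepatocyte markers (Alb, Apoa1, Ttr, Cps1, Serpina1c and Hnf4a) summed to 12518 to 16828 CPM in every library. Among markers of other cells, Clec4g (sinusoidal endothelium), Ptprc (leukocytes) and Lrat (stellate cells) stayed at or below 0.45 CPM. In the same lists, Stab2 (sinusoidal endothelium) reached 29.3 CPM, Cd68 (leukocytes) 311 CPM and Reln (stellate cells and fibroblasts) 16.2 CPM. The 6 leukocyte markers summed to 218 to 251 CPM in control, 284 to 316 CPM with FAC and 111 to 170 CPM in the pretreated libraries, mostly from Cd68. The 6 stellate and fibroblast markers summed to 9.27 to 14.3 CPM, 18.9 to 19.6 CPM and 7.90 to 9.81 CPM in that order, mostly from Reln. Cd68 and Reln were each called higher with FAC and lower in both pretreated groups against FAC. Others of the lists went the other way, with Clec4f and Dcn called lower with FAC and Clec4f called higher in MT+FAC against FAC, and their part in the results was not tested. Tests used edgeR's quasi-likelihood method with Benjamini-Hochberg adjustment over 13535 genes, and a gene is called where the adjusted p is under 0.05. Changes are log2 fold changes of the first group over the second, with their standard error (SE). In bulk RNA, fewer cells that make a transcript and less of it per cell cannot be told apart.

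Hamp, encoding hepcidin (ENSMUSG00000050440, chr7:30942368-30944032 on the minus strand, 3 exons), stood at 46.1, 30.9 and 55.9 CPM in the control libraries and at 24.5, 17.8 and 33.6 CPM with FAC. The groups overlapped, since the lowest control library lay below the highest FAC library. In the Lip-1+FAC libraries Hamp stood at 5.75, 6.18 and 5.33 CPM, and in the MT+FAC libraries at 6.72, 7.80 and 7.90 CPM. Every pretreated library therefore lay below every FAC-only and every control library, and the counts behind these levels ran from 126 to 1416 per library. Mean levels were 57.1% of control with FAC, 13.0% with Lip-1+FAC and 16.9% with MT+FAC.

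The fall of Hamp with FAC was 1.76-fold (log2 -0.82, SE 0.235, edgeR adjusted p = 0.0184). Its call, but not its direction, depended on the libraries used, over a range of -1.07 to -0.61 in 16 alternatives. Without control replicate 3 it was -0.62 (adjusted p = 0.0656) and without FAC replicate 1 -0.80 (adjusted p = 0.0539), and the edgeR call was lost in both. Fitted on the 6 compared libraries alone it was -0.80 (adjusted p = 0.064), also below the threshold for a call. The further falls against FAC alone were 4.35-fold with Lip-1+FAC (log2 -2.12, SE 0.265, edgeR adjusted p = 8.7e-05) and 3.36-fold with MT+FAC (log2 -1.75, SE 0.256, edgeR adjusted p = 3.0e-04). Both were called under all 16 alternatives, over ranges of -2.33 to -1.67 and -1.96 to -1.25. Against control, Hamp was 7.67-fold lower with Lip-1+FAC and 5.93-fold lower with MT+FAC. These comparisons share the FAC or the control libraries and are not independent of each other.

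The median change of short transcripts was below 0 with the pretreatments against FAC and above 0 with FAC against control. The annotated Hamp exons span 410 bases, and among the 44 tested protein-coding genes with under 600 exonic bases, a group chosen after the data were seen and including Hamp, the median log2 fold change was 0.07 in FAC against control, -0.59 in Lip-1+FAC against FAC and -0.73 in MT+FAC against FAC. The median over all tested genes lay within 0.01 of 0 in these 3 comparisons. Among the 44, Hamp itself had the lowest value with Lip-1+FAC, and 5 including Hamp were at or below its value with MT+FAC. With an offset for GC content and length, Hamp fell by 1.67 and 1.25 on the log2 scale against FAC, and both edgeR calls remained. The hepatocyte marker sum, at 15674 to 16828 CPM in control and FAC libraries, was 12518 to 14188 CPM in the pretreated ones, and 4 of its 6 genes were called lower and 1, Cps1, higher in each pretreated group against FAC. The part of either in the Hamp result was not tested.

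**Figure D1:**
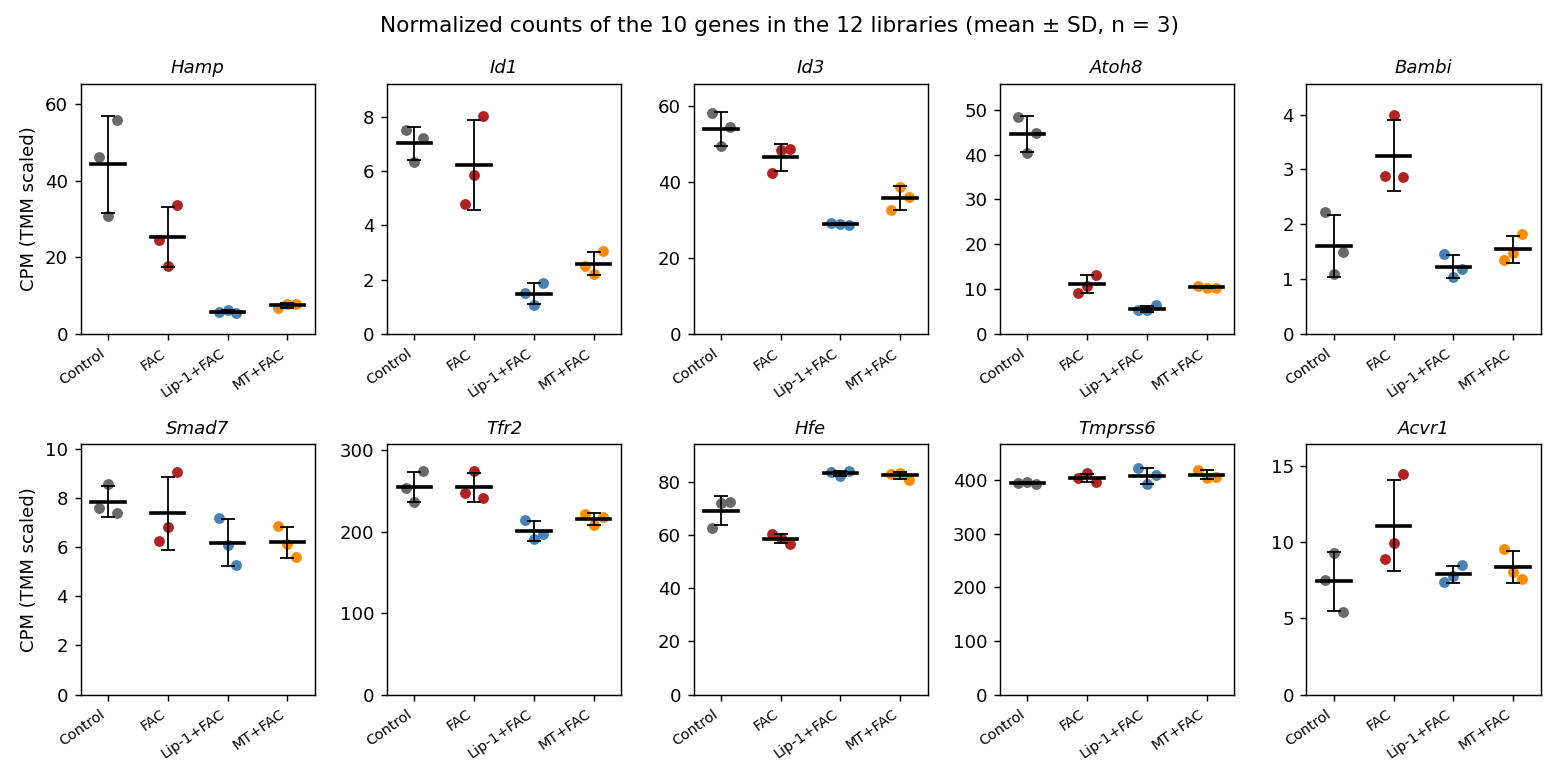
Normalized counts (CPM, TMM scaled, linear axis from 0) of the 10 genes in each of the 12 libraries, by group; points are libraries, the long bar is the mean and the error bar the SD (n = 3). The Hamp and Id1 panels show all 6 pretreated libraries below all FAC and control libraries, the Atoh8 panel shows 3 high control libraries, and the Tmprss6 panel is level.

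Id1 and Id3 encode inhibitors of DNA binding that are standard readouts of SMAD1/5/8 activity. Id1 stood at 7.52, 6.34 and 7.22 CPM in control and at 4.79, 5.86 and 8.03 CPM with FAC, and the groups overlapped. It was at 1.49, 1.07 and 1.86 CPM with Lip-1+FAC and at 2.50, 2.20 and 3.07 CPM with MT+FAC, with every pretreated library below every other library. FAC against control gave -0.18 (95% interval -0.60 to 0.24, edgeR adjusted p = 0.524), which was not called. Against FAC, Id1 fell 4.23-fold with Lip-1+FAC (log2 -2.08, SE 0.23, edgeR adjusted p = 1.5e-06) and 2.41-fold with MT+FAC (log2 -1.27, SE 0.214, edgeR adjusted p = 1.5e-04).

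Id3 moved less. Its control libraries stood at 58.1, 49.3 and 54.4 CPM and its FAC libraries at 42.3, 48.4 and 48.8 CPM, without overlap, but the difference of -0.21 missed the threshold (edgeR adjusted p = 0.0537). It was called in 3 of 16 alternatives, upper-quartile scaling (adjusted p = 0.0397), library size alone (adjusted p = 0.0356) and without control replicate 2 (adjusted p = 0.0272). Levels were 29.1, 28.8 and 28.7 CPM with Lip-1+FAC and 32.5, 38.7 and 35.9 CPM with MT+FAC, below every FAC library in both groups. The falls against FAC were -0.69 (SE 0.0854, edgeR adjusted p = 5.3e-06) and -0.38 (SE 0.0844, edgeR adjusted p = 0.00159). The second call was lost with the offset for GC content and length, at -0.19 (adjusted p = 0.115).

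Atoh8 encodes a basic helix-loop-helix factor and is a BMP-SMAD target in hepatocytes. It was the member that FAC alone changed most, from 48.5, 40.5 and 44.9 CPM in control to 9.17, 10.8 and 13.2 CPM. The groups lay far apart, and the fall was 4.05-fold (log2 -2.02, SE 0.122, edgeR adjusted p = 2.4e-09). With Lip-1+FAC it stood at 5.28, 5.22 and 6.39 CPM, a further fall of 0.97 on the log2 scale (SE 0.133, edgeR adjusted p = 1.6e-05). With MT+FAC it stood at 10.8, 10.2 and 10.3 CPM, inside the range of the FAC libraries. The MT+FAC value against FAC was -0.07 (95% interval -0.34 to 0.19, edgeR adjusted p = 0.664).

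Smad7, the inhibitory SMAD that is itself a target of the pathway, was not called in any of the 6 comparisons. It ran from 7.42 to 8.59 CPM in control, 6.25 to 9.08 CPM with FAC, 5.29 to 7.20 CPM with Lip-1+FAC and 5.61 to 6.88 CPM with MT+FAC. Its interval was -0.58 to 0.10 for Lip-1+FAC against FAC and -0.58 to 0.10 for MT+FAC against FAC, so that falls as large as those of Hamp or Id1 lay outside it.

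Bambi and Acvr1 act at the receptor. Bambi encodes a pseudoreceptor without a kinase domain that dampens signalling, and its counts were the lowest of the set, from 28 to 209 per library. It rose from 2.22, 1.09 and 1.50 CPM in control to 2.89, 4.00 and 2.87 CPM with FAC (log2 1.04, SE 0.27, edgeR adjusted p = 0.00562), without overlap. It was back at 1.46, 1.04 and 1.18 CPM with Lip-1+FAC and at 1.34, 1.47 and 1.81 CPM with MT+FAC. Those falls against FAC were -1.42 (SE 0.276, edgeR adjusted p = 5.2e-04) and -1.10 (SE 0.268, edgeR adjusted p = 0.0034), and against control the pretreated groups differed by -0.38 and -0.06, neither called. The 4 cholangiocyte markers (Krt19, Krt7, Epcam and Sox9) were all called higher with FAC and lower in each pretreated group against FAC. Their summed level was 20.9 to 23.8 CPM in control, 58.0 to 74.3 CPM with FAC and 12.4 to 20.1 CPM in the pretreated libraries, mostly from Sox9, and their part in the Bambi result was not tested.

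Acvr1 encodes ALK2, a type I BMP receptor. It stood at 7.52, 9.30 and 5.41 CPM in control and at 8.88, 9.90 and 14.5 CPM with FAC, with overlap. The rise of 0.57 (SE 0.194, edgeR adjusted p = 0.0285) lost its call in 5 of 16 alternatives. It was 0.39 without control replicate 3 and 0.34 without FAC replicate 3 (adjusted p = 0.124 and 0.158), and 0.58 without control replicate 1 (adjusted p = 0.0669). Fitted on the compared libraries alone it was 0.59 (adjusted p = 0.0729), and with the replicate number as a block 0.57 (adjusted p = 0.0515). In the pretreated groups Acvr1 ran from 7.39 to 8.50 CPM and from 7.56 to 9.53 CPM. Lip-1+FAC against FAC was -0.48 (edgeR adjusted p = 0.0545), a value called in 8 of 16 alternatives, and MT+FAC against FAC was -0.39 (edgeR adjusted p = 0.111), called in 3.

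Tfr2, Hfe and Tmprss6 encode the iron-sensing arm. Tfr2, encoding transferrin receptor 2, stood at 254, 237 and 274 CPM in control and 247, 275 and 242 CPM with FAC, and the difference was -0.0016 (95% interval -0.14 to 0.14, edgeR adjusted p = 0.987). It was lower in the pretreated groups, at 215, 191 and 197 CPM with Lip-1+FAC and 221, 208 and 218 CPM with MT+FAC, without overlap with FAC in either. Those falls were small, at -0.34 (SE 0.0666, edgeR adjusted p = 5.3e-04) and -0.24 (SE 0.0665, edgeR adjusted p = 0.00797). The first ran from -0.39 to -0.19 over 16 alternatives and was called in each. The second lost its call without FAC replicate 2, at -0.18 (adjusted p = 0.0554).

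Hfe, encoding the major histocompatibility complex class I-like protein that is altered in hereditary haemochromatosis, moved the other way. It stood at 62.9, 72.3 and 72.6 CPM in control and fell to 60.4, 59.0 and 56.8 CPM with FAC (-0.24, SE 0.0643, edgeR adjusted p = 0.00728). The pretreated libraries were at 83.7, 82.2 and 84.1 CPM with Lip-1+FAC and 83.2, 83.6 and 81.0 CPM with MT+FAC, above every control and FAC library. The rises against FAC were 0.50 (SE 0.0641, edgeR adjusted p = 6.8e-06) and 0.49 (SE 0.064, edgeR adjusted p = 1.1e-05). Against control they were 0.27 and 0.25 (edgeR adjusted p = 0.00417 and 0.00938), the second lost without control replicate 1, at 0.19 (adjusted p = 0.0564). B2m, encoding the light chain that HFE needs to reach the surface, was not called in any of the 6 comparisons.

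Tmprss6, encoding the protease that removes hemojuvelin from the cell surface, was level, at 392 to 422 CPM in all 12 libraries. The 95% interval of FAC against control was -0.06 to 0.14, and those of the pretreated groups against FAC were -0.09 to 0.11 and -0.08 to 0.12. It was called higher under the offset for GC content and length alone, by 0.19 in Lip-1+FAC against FAC and by 0.21 against control. Per kilobase of exon in control, the mean level was 117 CPM for Tmprss6, 108 CPM for Hamp and 58.8 CPM for Tfr2. The same measure was 30.1 CPM for Id3, 19.4 CPM for Hfe, 17.8 CPM for Atoh8 and 6.06 CPM for Id1, with Smad7 (1.74 CPM), Acvr1 (1.53 CPM) and Bambi (0.316 CPM) at the bottom. With Lip-1+FAC, Hamp stood at 14.0 CPM per kilobase, below Id3 (16.1 CPM) and Hfe (23.3 CPM).

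**Figure D2:**
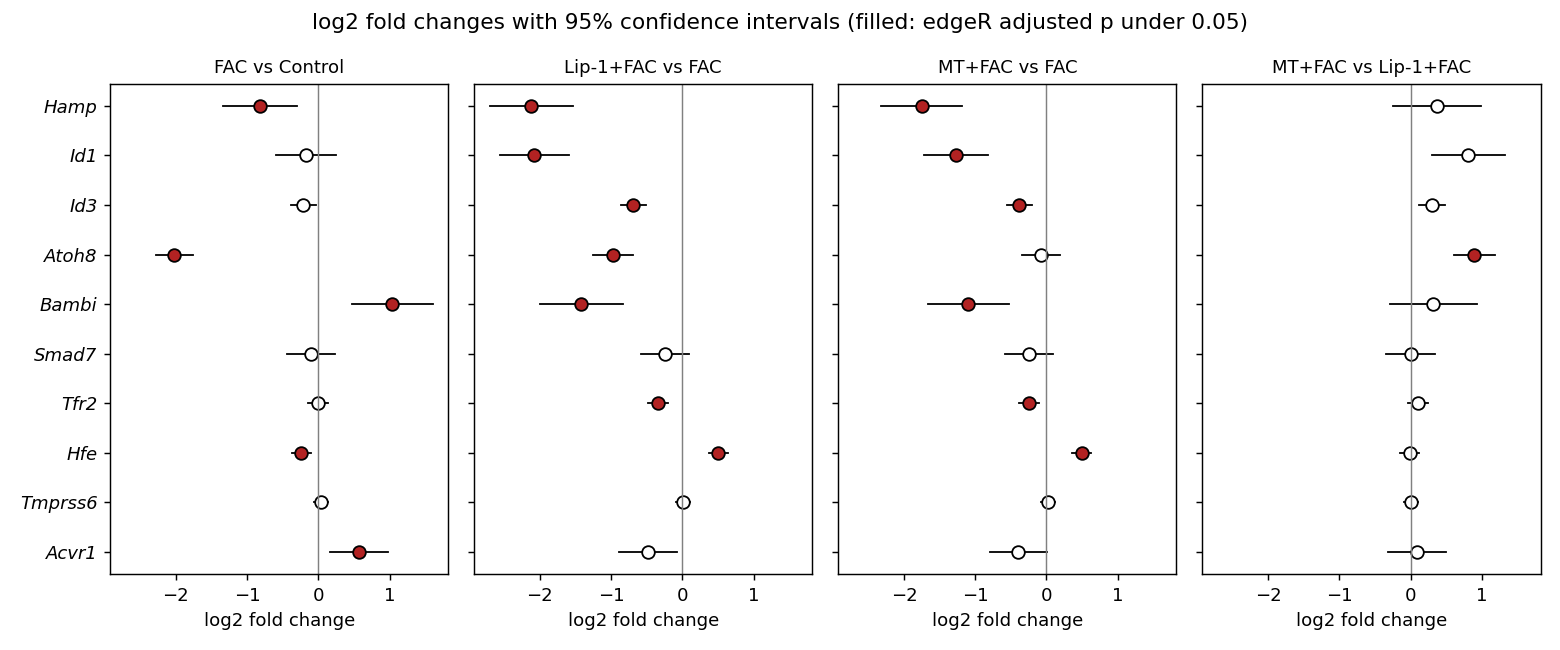
The log2 fold changes (horizontal axis) of the 10 genes in 4 comparisons, with 95% confidence intervals; filled points passed the edgeR threshold (adjusted p under 0.05). Atoh8 is far left in FAC against control at -2.02, Hamp and Id1 are far left with Lip-1+FAC at -2.12 and -2.08, Hfe is right of 0 in both pretreatment panels, and Atoh8 is the 1 filled point between the pretreatments.

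Counted over the set, FAC against control called 5 of 10 members, beside 36.6% of all genes. Bambi and Acvr1 were the 2 called higher (17.5% of all genes) and Hamp, Atoh8 and Hfe the 3 called lower (19.1%). Lip-1+FAC against FAC called 7 of 10 beside 39.9% of all genes, 1 higher, Hfe (20.7%), and 6 lower (19.2%). MT+FAC against FAC called 6 of 10 beside 40.9%, with Hfe the 1 called higher (21.2%) and 5 lower (19.7%). Against control, Lip-1+FAC called 6 of 10 beside 30.2% and MT+FAC 6 of 10 beside 19.8% of all genes. With a library left out, the MT+FAC share of all genes ran from 12.9% to 20.3%. Tfr2 lost its call in MT+FAC against control without control replicate 3 (edgeR adjusted p = 0.087) and without MT+FAC replicate 2 (edgeR adjusted p = 0.0785). The median log2 fold change of the 10 was -0.14 with FAC, -0.59 and -0.31 for the pretreatments against FAC, and -0.36 and -0.29 for them against control. FAC against control called 3 members without control replicate 3, beside 31.7% of all genes, and 3 fitted on the 6 compared libraries alone, beside 33.6%. With the replicate number as a block it called 4, beside 35.9%.

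Liproxstatin-1 and Mito-TEMPO pretreatment were compared directly, at doses the labels do not give. Of the 10 members, 1 was called, beside 1.34% of all genes: Atoh8 was 1.86-fold higher with MT+FAC (log2 0.90, SE 0.134, edgeR adjusted p = 0.00149). The share of all genes called was 0.531% to 0.620% without Lip-1+FAC replicate 1 or 2 or MT+FAC replicate 2 or 3, each with 1 member called. It was 1.80% without the filter on low counts and 3.44% by DESeq2, each with 3 members called, and 2.44% on the compared libraries alone, with 1. The groups did not overlap in 4 of 10 members, Hamp, Id1, Id3 and Atoh8, each higher with MT+FAC, beside 19.8% of all genes. Hamp differed by 0.37 (95% interval -0.25 to 0.99, edgeR adjusted p = 0.652), an interval that does not show the pretreatments to act alike. Id1 differed by 0.81 (edgeR adjusted p = 0.112) and Id3 by 0.31 (edgeR adjusted p = 0.087). Both were called without the filter on low counts, at 0.82 and 0.31 (edgeR adjusted p = 0.0275 and 0.0286), and by DESeq2, at 0.81 and 0.31 (adjusted p = 0.0379 and 0.032).

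The order of the group means, read with these tests, differed between members. Hamp, Id1 and Id3 fell in the order control, FAC, MT+FAC, Lip-1+FAC. Of the neighbours in that order, control and FAC were not separated by the test for Id1 and Id3, and MT+FAC and Lip-1+FAC were not separated for any of the 3. For Atoh8 the order was the same, but FAC and MT+FAC were the neighbours that were not separated. Bambi was highest with FAC and separated from control, the next in order, while control, MT+FAC and Lip-1+FAC were not separated from each other as neighbours.

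The rest of the pathway was counted over 57 further genes, of which 47 had enough counts to be tested. FAC against control called 23 of the 47 (14 higher, 9 lower), Lip-1+FAC against FAC 24 (9 higher, 15 lower) and MT+FAC against FAC 22 (6 higher, 16 lower). Between the pretreatments 1 was called, Stat3, lower with MT+FAC by 0.24 on the log2 scale. The backgrounds are those given for the members.

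Hjv, encoding hemojuvelin, the BMP co-receptor (annotated under its older symbol Hfe2), fell with FAC as Hamp did and rose in the pretreated groups against FAC, where Hamp fell. It stood at 30.3, 33.3 and 34.0 CPM in control and at 10.1, 9.58 and 13.2 CPM with FAC, a fall of 1.58 on the log2 scale (SE 0.112, edgeR adjusted p = 1.2e-08). In the libraries where Hamp was lowest, Hjv had risen again, to 25.2, 23.8 and 23.5 CPM with Lip-1+FAC and 27.8, 24.2 and 24.7 CPM with MT+FAC. The rises against FAC were 1.15 and 1.23 (edgeR adjusted p = 3.7e-07 and 2.4e-07), and Hjv stayed below control by 0.43 and 0.35. Neo1, encoding neogenin, which binds hemojuvelin, showed the reverse, rising by 0.74 with FAC and falling by 0.32 and 0.39 with the pretreatments.

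**Figure D3:**
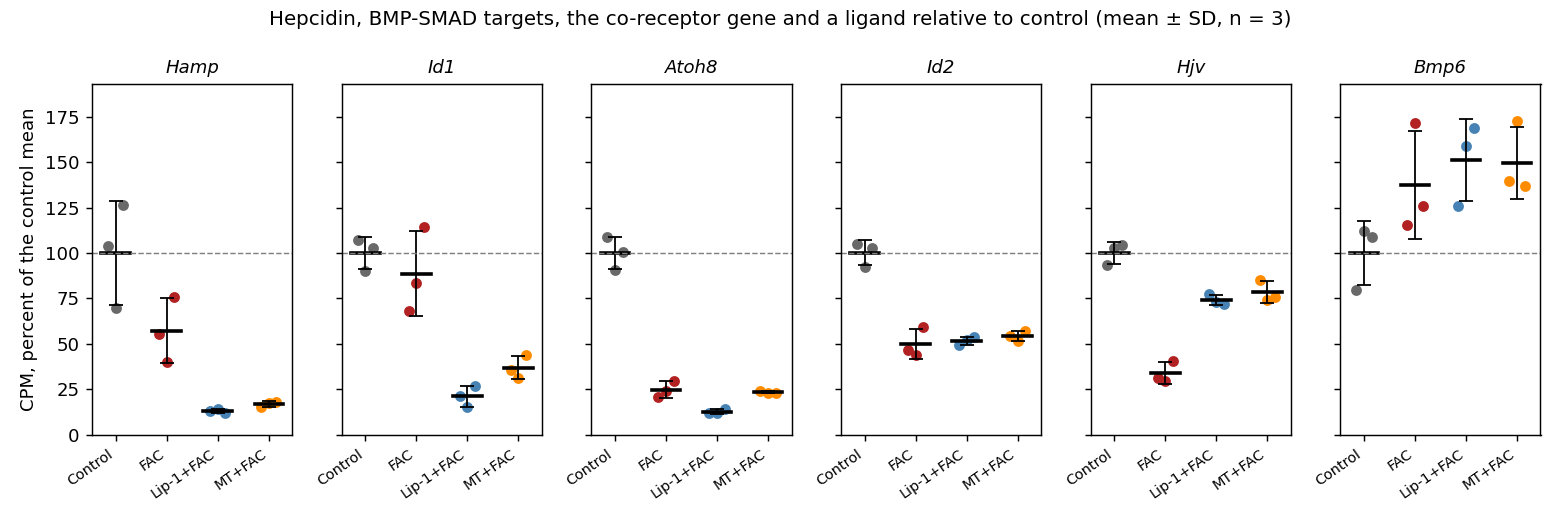
CPM of 6 genes in each library as a percentage of the gene's control mean (dashed line at 100), by group; points are libraries, bars are the mean and SD (n = 3). In the pretreated groups the Hamp mean is 13.0% and 16.9% of control while the Hjv mean is 74.2% and 78.5%, the Id2 mean is at most 54.2% in every group with FAC, and Bmp6 is above control.

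Among the 9 ligand genes, 6 were tested. Bmp6, the ligand most tied to iron, stood at 11.7, 16.5 and 16.0 CPM in control and at 17.1, 25.3 and 18.6 CPM with FAC (0.47, SE 0.169, edgeR adjusted p = 0.0419). It was also above control with Lip-1+FAC and MT+FAC, by 0.59 and 0.58 (edgeR adjusted p = 0.0164 and 0.0257), and was not called between FAC and either pretreatment. Bmp2, Bmp4, Inhba and Inhbb fell with both pretreatments against FAC, Bmp2 by 1.77 and 1.30 and Inhbb, encoding the activin B subunit, by 1.15 and 1.01 on the log2 scale. Bmp4 had risen with FAC, by 1.51, at no more than 2.30 CPM. The 8 sinusoidal endothelial markers, whose cells are the main source of Bmp2 and Bmp6 in liver, summed to 36.7 to 39.5 CPM in control and FAC libraries and 28.4 to 32.5 CPM in pretreated ones, mostly from Stab2. Against FAC, Stab2 was called lower and Tek called higher in both pretreated groups, the other 5 tested markers were not called, and Clec4g was at or below 0.25 CPM. The part of these markers in the ligand values was not tested.

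Among the signalling receptors and SMADs, Bmpr1a and Acvr2a rose with FAC by 0.22 and 0.39, Bmpr2 was not called in any of the 6 comparisons, and Acvr2b fell with both pretreatments, by 0.52 and 0.45. Smad1 was not called in any comparison, at 64.2 to 74.7 CPM in all 12 libraries, and Smad4 rose by 0.19 with FAC and by a further 0.17 with Lip-1+FAC. Smad9 fell by 0.74 with FAC (edgeR adjusted p = 0.0464), on 51 to 63 counts per control library and 35 to 54 per FAC library. Alternatives for single genes are reported for the members only, so how firm this call and that of Bmp6 are is not shown. Of the other SMAD targets, Id2 fell from 157, 138 and 154 CPM in control to 69.8, 65.7 and 88.7 CPM with FAC (SE 0.0916 and 95% interval -1.20 to -0.81 on the log2 scale, edgeR adjusted p = 3.6e-07). It was not called against FAC in either pretreated group, at 0.05 and 0.12, with libraries between 73.5 and 85.2 CPM.

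Extracellular and intracellular inhibitors made up 16 genes, 13 of them tested. Fst, encoding follistatin, which traps activins, rose with FAC from 61.2 to 66.2 CPM up to 98.1 to 103 CPM (0.65) and fell below control with the pretreatments, to 33.8 to 37.3 and 37.6 to 56.3 CPM (-0.84 and -0.44 against control). Smurf1, encoding a ubiquitin ligase for SMADs, and Skil, encoding the SMAD co-repressor SnoN, rose by 0.70 and 0.68 with FAC. After either pretreatment neither was called against control, at 0.04 to 0.09. Bmper, encoding a BMP-binding secreted protein, went the opposite way, at -0.79 with FAC and 1.45 and 1.27 with the pretreatments against FAC. Nog and Grem1 had 0 counts in all 12 libraries, which over 345586492 counts allows up to 0.00868 CPM (3 counts, for counting error only). Erfe, encoding erythroferrone, stayed between 0.511 and 1.53 CPM and was not called in any comparison.

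Iron-sensing partners included Tfrc, the transferrin receptor whose transcript is degraded when iron is high. It fell from 74.0, 65.2 and 59.6 CPM in control to 27.8, 25.9 and 20.2 CPM with FAC (log2 -1.42, SE 0.116, edgeR adjusted p = 7.6e-08). It was at 18.7 to 23.2 CPM with Lip-1+FAC and 17.0 to 19.1 CPM with MT+FAC, so that it did not return toward control with either pretreatment. Furin, encoding a protease that cleaves hemojuvelin, fell with both against FAC, by 0.62 and 0.54, and Trf, encoding transferrin, rose by 0.33 and 0.41.

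Of 11 inflammatory and hepatocyte factors that act on Hamp, FAC against control called 2 higher and 1 lower (27.27%, beside 36.6% of all genes). Lip-1+FAC against FAC called 4 higher and 2 lower (54.55%, beside 39.9%). MT+FAC against FAC called 2 higher and 2 lower (36.36%, beside 40.9%). Il6st, encoding the interleukin-6 co-receptor gp130, and Stat3 rose with FAC by 0.46 and 0.19. Against FAC, Il6st was then called lower in both pretreated groups, by -0.17 and -0.24, while Stat3 was called higher with Lip-1+FAC, by 0.16, and not called with MT+FAC. Socs3, a direct STAT3 target, was not called in any comparison, at 3.13 to 4.60 CPM. Creb3l3, encoding the liver factor CREBH, fell by 0.35 with FAC and by a further 0.31 with Lip-1+FAC, from 47.6 to 58.1 CPM in control down to 32.1 to 34.4 CPM. Jak1 and Jak2, encoding kinases that signal to STAT3, were called higher in both pretreated groups against FAC, by 0.21 and 0.25 with Lip-1+FAC and by 0.16 and 0.29 with MT+FAC. Usf2, encoding an upstream stimulatory factor, stood at 7.01 to 7.85 CPM in control, 6.42 to 6.82 CPM with FAC, 4.91 to 6.51 CPM with Lip-1+FAC and 4.15 to 5.13 CPM with MT+FAC. It fell by 0.55 in MT+FAC against FAC (edgeR adjusted p = 0.00698), and the Lip-1+FAC value of -0.29 was not called. Against control it was called lower in both pretreated groups, by -0.45 and -0.71. Cebpa was not called in any comparison.

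**Figure D4:**
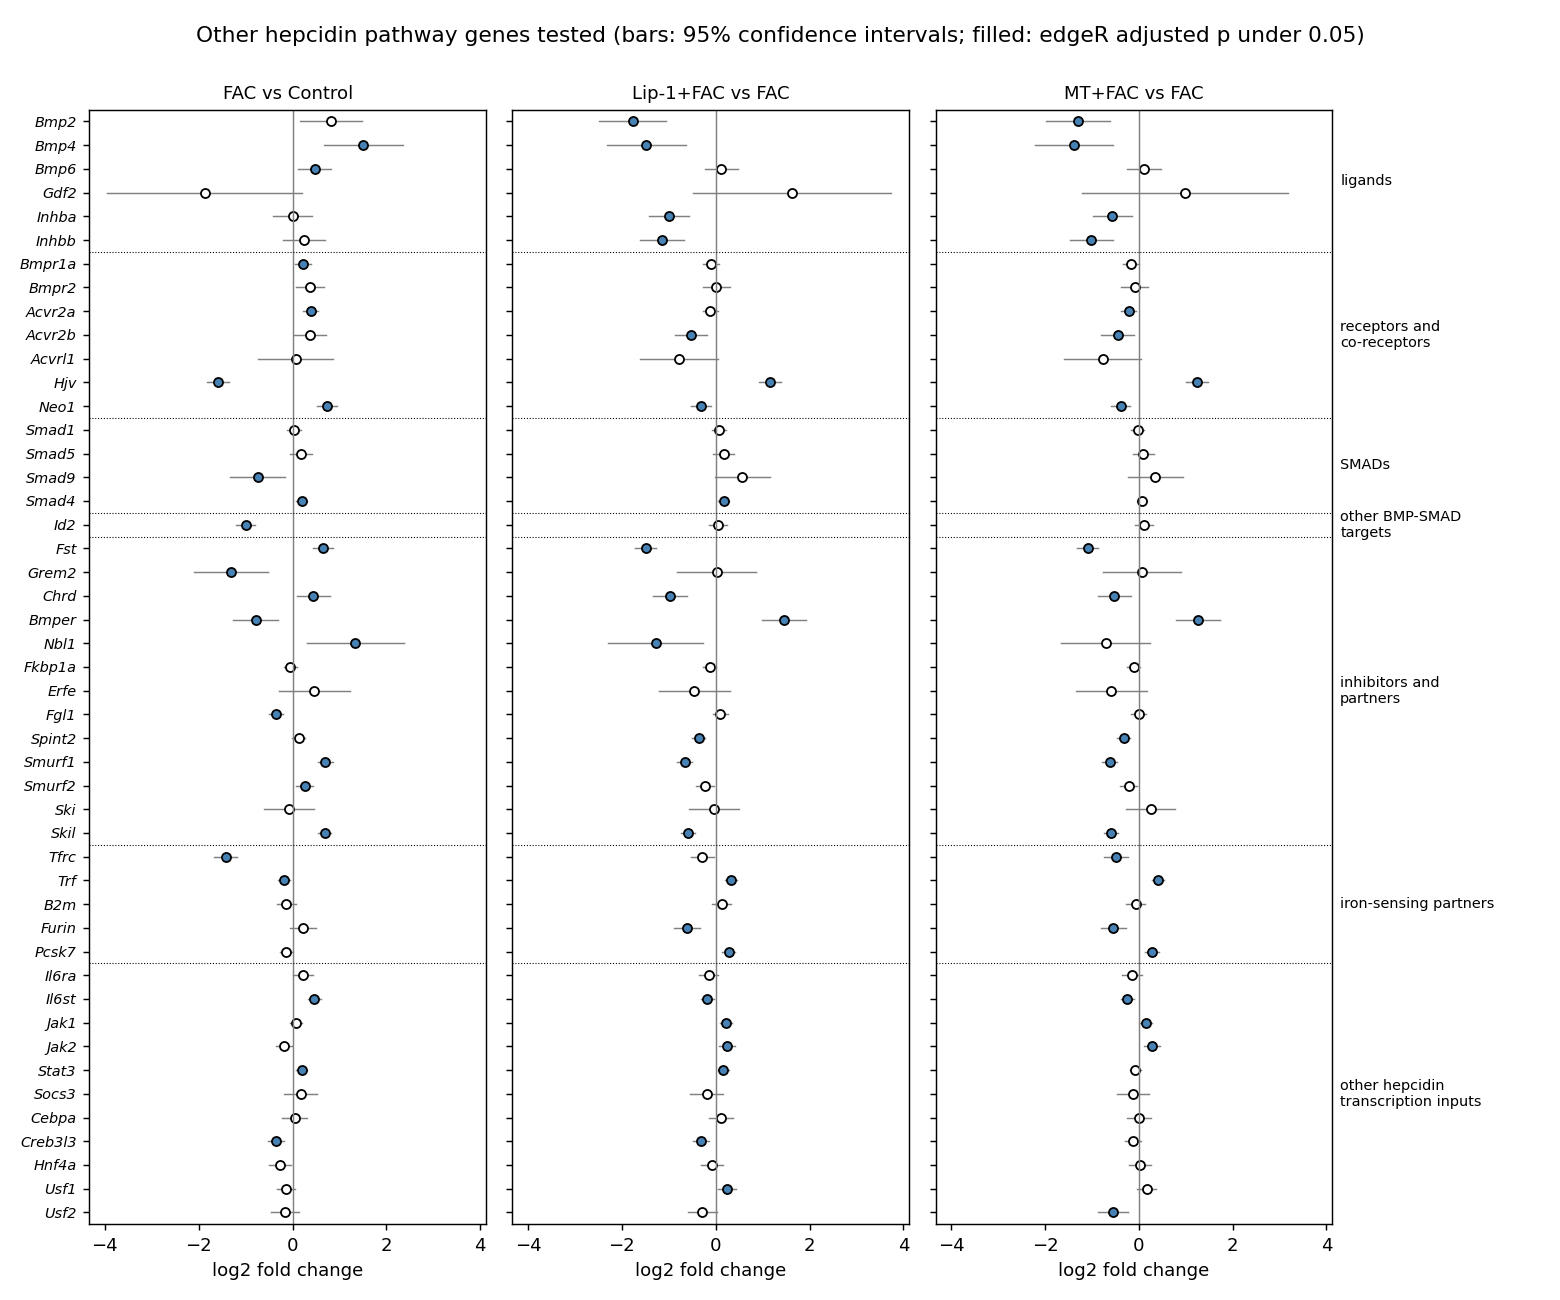
The log2 fold changes (horizontal axis) with 95% confidence intervals of the 47 tested pathway genes outside the set, by role, in 3 comparisons; filled points passed the edgeR threshold (adjusted p under 0.05). Hjv stands far left at -1.58 with FAC and right of 0 at 1.15 and 1.23 with the pretreatments, opposite to Fst at 0.65, -1.49 and -1.09.

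Across the 12 libraries, the log2 CPM of Hamp followed that of Id3 (Pearson r = 0.949), Id1 (0.928), Atoh8 (0.846) and Tfr2 (0.845), ran against Hfe (-0.763), and gave a value near 0 with Acvr1 (0.019). The values were 0.682 for Smad7, 0.438 for Bambi and -0.624 for Tmprss6. Among 8992 protein-coding genes with a mean of at least 5 CPM, Id3 would rank at place 28, Id1 at 81, Atoh8 at 425 and Tfr2 at 433. The highest values were those of Slc25a5 (0.990), Mrpl17 (0.985), Apoa5 (0.985), Pigx (0.984) and Smim4 (0.976). Group means were 97.3, 66.7, 33.1 and 43.3 CPM for Apoa5 in the order control, FAC, Lip-1+FAC and MT+FAC, and 911, 868, 779 and 794 CPM for Slc25a5. These values describe 12 libraries in 4 groups that share their scaling.

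**Figure D5:**
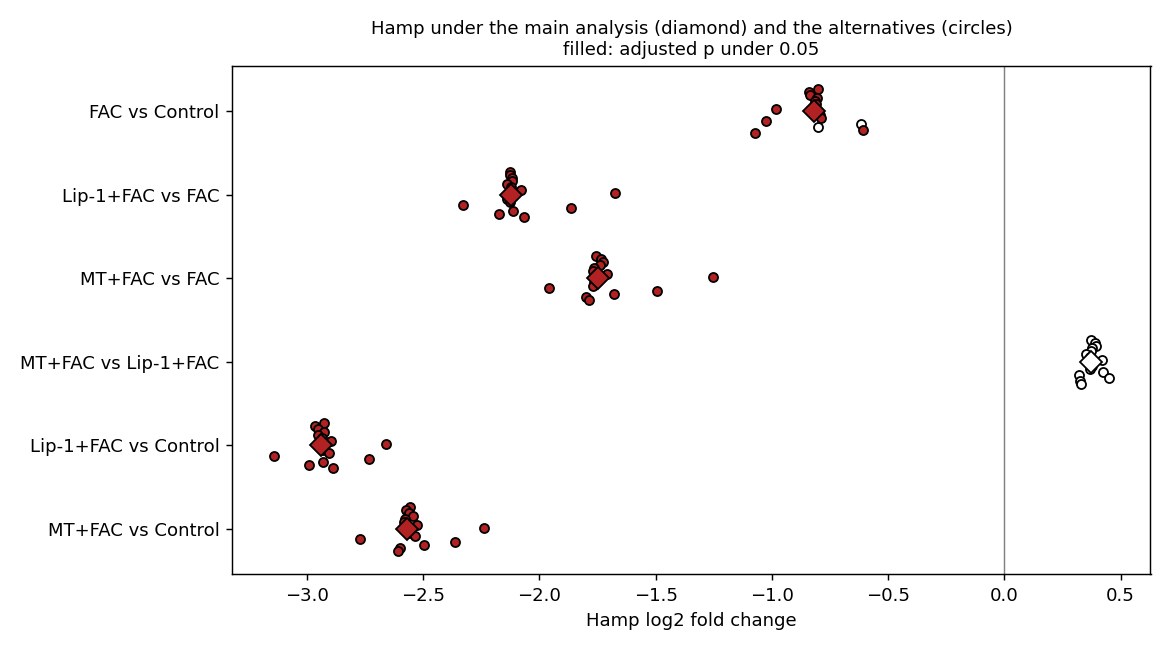
The Hamp log2 fold change (horizontal axis) in 6 comparisons under the reported analysis (diamond) and 16 alternatives each (circles); filled symbols have an adjusted p under 0.05. Open circles in FAC against control mark the 3 alternatives that lost the call, while every value of a pretreated group against FAC or control is filled and the MT+FAC against Lip-1+FAC values are open.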

How the data were processed

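Per the labels' protocols, RNA from cultured hepatocytes was turned into cDNA with the SMART-Seq v4 kit, which amplifies by PCR, and sequenced from Nextera XT libraries. Each deposited file holds raw read counts by gene, which the authors did not normalize. The submitters' processing notes name STAR and GRCm38, and their versions and settings are not given in the sources used here. No molecular identifiers are mentioned, so counts are not independent molecules. The unstranded column was used (49.9% to 50.0% of strand-assigned counts fell on either strand), and lines that name no gene, 18.8% to 24.2% of each library's listed reads, were left out. Of 55487 identifiers, 55227 matched the GENCODE annotation. Counts were analysed in edgeR 4.0.16 (R 4.3.3) with its default expression filter (filterByExpr), TMM scaling (factors 0.989 to 1.01), 4 group means over all 12 libraries, robust quasi-likelihood tests and Benjamini-Hochberg adjustment over 13535 genes. The common biological coefficient of variation was 9.71%. After the fit, the method was also run on counts simulated from its estimates, with far fewer genes changed than were called here. That run does not test the method at the share of genes changed in these data. Log2 CPM for correlations used a prior count of 2. The members and gene lists were chosen with earlier results of these data known. The text names all 10 members whatever their values, other listed genes that were called in FAC against control or in a pretreated group against FAC or were at or near 0 (B2m, Bmpr2, Smad1, Erfe, Socs3 and Cebpa were named in addition, after their values were seen), and the 5 genes most correlated with Hamp. Alternatives changed the scaling, filter, tool (DESeq2 1.42.0), libraries in the fit, count column, replicate block, GC and length offset, and left out each library in turn. Where that left a group with 2 libraries, the spread was shared with the other groups. Start-region sequence is not reported here.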

Additional observations from a re-analysis of the deposited data

How the results depend on the processing

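Of 948 log2 fold changes recomputed for the 10 members, 881 kept their direction and side of the threshold, 13 lost a call, 20 gained one and 34 changed sign, the last all in values not called. In FAC against control, Hamp was -0.80 when fitted on the compared libraries alone and -1.07 to -0.61 with a library left out, and the members called were 3 and 3 to 6. Between the pretreatments, all genes called were 477 without the filter on low counts, 312 on the compared libraries alone, 465 by DESeq2 and 74 to 156 with a library left out, and members called were 3 without the filter and 3 by DESeq2. Of the genes called between the pretreatments, 63 of 182 were higher with MT+FAC, and 85 of 182 with upper-quartile scaling. The replicate numbers gave no clear sign of pairing: 3 of 18 same-number correlations of deviations from the group mean exceeded 0.1 (-0.249 to 0.164), and 7 of 18 were best with their own number. With 3 libraries per group these values cannot exclude pairing. With the replicate block, all genes called were 4863, 5278, 5488, 193, 3961 and 2553 in the 6 comparisons (FAC against control, Lip-1+FAC and MT+FAC against FAC, MT+FAC against Lip-1+FAC, and each pretreatment against control). Acvr1 in FAC against control, at 0.57 (adjusted p = 0.0515), was the 1 member call the block changed, which left 4 members called there. Most sign changes lay near 0, and the largest reversed value was 0.25, for Bambi in MT+FAC against control without control replicate 1. Tfr2 in FAC against control was 0.018 with RLE scaling, 0.013 without the filter, 0.0046 at a mean of at least 5 CPM, 0.0069 with the stranded columns summed, 0.00024 with the replicate block, 0.016 on the compared libraries, 0.018 by DESeq2 and -0.060 to 0.054 with a library left out. Tmprss6 was -0.0062 at a mean of at least 5 CPM and -0.0093 to 0.042 with a library left out in Lip-1+FAC against FAC. It was -0.0024 with the stranded columns and -0.0027 to 0.036 in MT+FAC against FAC, and -0.011 with the stranded columns, -0.093 with the offset and -0.021 to 0.030 between the pretreatments. Atoh8 in MT+FAC against FAC was 0.11 with the offset and -0.19 to 0.061 with a library left out. Between the pretreatments, Smad7 was -0.018 with the stranded columns, -0.10 with the offset and -0.10 to 0.12 with a library left out, Hfe 0.0046 with upper-quartile scaling and 0.0095 with library size alone, and Acvr1 -0.0092 to 0.15. With a library left out, Smad7 in FAC against control was -0.26 to 0.0060, Bambi in MT+FAC against control -0.27 to 0.25, and Acvr1 -0.095 to 0.29 in Lip-1+FAC and -0.0048 to 0.38 in MT+FAC against control. The cause of these changes was not tested. Bambi and Id1, with as few as 28 and 30 counts in a library, are the members that depth limits most.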
